A study of Homo sapiens with 15 samples.

Results

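A375 melanoma cells that overexpressed VAV1 and received saracatinib, an inhibitor of SRC family kinases, were compared with A375 cells that carried an empty vector and received vehicle. The comparison rests on 6 RNA sequencing libraries, 3 per group, of the 15 in the series, and covers the 14109 gene symbols, of 17360 in the series, that reached a normalized count of 10 in at least 3 of those 6 libraries. The question was which of the changes made by VAV1 persisted, returned to the control level or went past it when the VAV1 cells were SRC inhibited.

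A375 is an established human melanoma line with a mutant BRAF kinase. The 3 groups of the vehicle and saracatinib experiment are empty vector with vehicle, VAV1 overexpression with vehicle and VAV1 overexpression with saracatinib, and the VAV1 cells with vehicle served here to say what VAV1 changed. A separate experiment compared untreated A375 with the empty vector to untreated A375 with RAC1 P29S, an activated form of RAC1. Its 3 RAC1 P29S libraries are grouped by their titles, because their genotype field reads empty vector. The labels give neither a dose nor a treatment time, and they do not name the vehicle, the promoter that drives VAV1 or whether the lines are clones. The design text calls the replicates biological but does not state that each was transduced separately, so p-values measure the spread between these libraries. No group combined the empty vector with saracatinib. An effect of the drug on the VAV1 programme therefore cannot be told apart from an effect the drug would have on A375 cells without VAV1.

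VAV1 is a guanine nucleotide exchange factor of blood cells that loads small GTPases, RAC1 among them, with GTP. SRC family kinases phosphorylate VAV proteins on tyrosines and so relieve the autoinhibition of their exchange activity. Signalling of such GTPases to actin is known to raise transcription through the SRF cofactors MRTF and through YAP with TEAD factors, and SRC kinases act at the same focal adhesions. Melanoma cells are known to switch between differentiated states that depend on SOX10 and MITF and dedifferentiated states with high AXL and EGFR.

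All values are levels as log2(normalized count + 1), and differences are on that scale, which understates the change of weakly expressed genes. Differences are given ± SE, with adjusted p from limma (Benjamini-Hochberg over all tested genes), and a gene is said to have changed where adjusted p was under 0.05. Libraries of a group correlated at 0.983 to 0.987 over all tested genes. Saracatinib-treated VAV1 libraries correlated with empty-vector libraries at 0.944 to 0.948, a range like that of the VAV1 libraries with vehicle, 0.943 to 0.948. The first principal component, with 49.7% of the variance, placed the empty-vector libraries at -55.1 to -53.0, the VAV1 libraries with vehicle at 27.7 to 31.4 and those with saracatinib at 23.4 to 24.9. Mitochondrially encoded genes made up 1.45% to 1.87% of the normalized counts with the empty vector, 1.01% to 1.38% with VAV1 and vehicle and 1.44% to 2.0% with saracatinib.

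The transgene was checked before anything else. VAV1, on chromosome 19 at 6772714 to 6857366 (plus strand, GENCODE 29 on GRCh38), stood at 1.90, 2.49 and 2.28 in the empty-vector libraries, at 13.93, 13.86 and 13.94 with VAV1 and vehicle and at 14.10, 14.16 and 14.11 with VAV1 and saracatinib. It was 11.90 ± 0.11 above the empty vector under saracatinib (adjusted p = 1.99e-15), and its difference between saracatinib and vehicle did not pass the test (0.22 ± 0.11, adjusted p = 0.15). RAC1 itself was at 12.32, 12.20 and 12.24 with the empty vector and at 12.11, 11.99 and 12.02 with VAV1 and saracatinib, a difference of -0.21 ± 0.05 (adjusted p = 0.00215).

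The melanoma identity of the line was checked against lineage genes. SOX10, which encodes the neural crest and melanocyte transcription factor, was at 12.85 to 12.92 in the empty-vector libraries and MITF, which encodes the melanocyte master regulator, at 8.30 to 8.77, while the pigment granule gene PMEL was at 3.53 to 4.62. Of 7 haematopoietic marker genes in the files, 3 stayed under a normalized count of 10 in every library. The list summed to 331 to 370 normalized counts with the empty vector and 235 to 298 with VAV1 and vehicle. With saracatinib it summed to 160 to 209, and CORO1A, at 8.24 to 8.40 with the empty vector, gave most of the control sum. In the same order the 7 endothelial genes summed to 103 to 122, 254 to 305 and 194 to 232. Of these 3 stayed under 10 throughout, and TIE1, at 7.69 to 7.90, gave most of the sum with VAV1 and vehicle. The 7 fibroblast genes summed to 196 to 203, 254 to 289 and 254 to 277. The 6 epithelial genes summed to 6401 to 7252 with the empty vector and 13190 to 14150 with VAV1 and vehicle. With saracatinib they summed to 8236 to 8652, and most of each sum came from KRT18. Of the 4 tested, KRT8 and KRT18 were higher than control under saracatinib and KRT14 and CLDN4 lower, with a median difference of -0.35. The part of these marker levels in the results was not tested. In such bulk libraries a change in the share of cells in some state cannot be told apart from a change in RNA per cell.

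VAV1 cells under saracatinib differed widely from the empty-vector cells. Of the 14109 genes, 6218 (44.1%) differed between the groups, 3185 higher (22.6%) and 3033 lower (21.5%), and 701 of the higher and 502 of the lower genes differed at least 2-fold. The 3 libraries of one group did not overlap those of the other for 7525 genes (53.3%). Under vehicle, VAV1 had raised 3328 genes (23.6%) and lowered 2900 (20.6%). Saracatinib against vehicle in VAV1 cells raised 2639 genes (18.7%) and lowered 2714 (19.2%). Of the 6218 genes, 1796 were higher and 1556 lower than control both with and without saracatinib. A further 238 that VAV1 had raised ended below control, and 219 that it had lowered ended above. The other 2409 were not called with VAV1 and vehicle, and 2419 genes called there were not called under saracatinib. The comparisons share libraries with each other, the empty-vector ones or the VAV1 ones, so they are given side by side and not correlated.

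Sorting was based on the 1389 genes (9.84%) that VAV1 with vehicle had changed at least 2-fold, 597 higher and 792 lower. A gene is said here to have stayed changed where the saracatinib-treated VAV1 cells still differed from empty vector in the same direction, and to have overshot where they differed in the opposite direction. It is said to have returned where that difference was not called, its 95% confidence interval lay within 1.5-fold of the control and saracatinib had moved it toward control. The remaining genes were not settled by these data. Of the 1389 genes, 1044 stayed changed (75.2%), 256 were not settled (18.4%), 55 returned (3.96%) and 34 overshot (2.45%). Among those that stayed changed, 742 were still at least 2-fold from the empty vector, 414 had moved toward control under saracatinib, 80 had moved further away and for 550 the drug effect was not called.

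The size of the original change went with the outcome, as a description over genes that share libraries. Of the 454 genes changed at least 4-fold by VAV1, 86.8% stayed changed, 0.881% returned and 0.661% overshot. Of the 935 genes changed between 2-fold and 4-fold, 69.5% stayed changed, 5.45% returned and 3.32% overshot. Among the 3694 genes that VAV1 had changed by less than 1.5-fold, 1621 stayed changed (43.9%), 1109 returned and 372 overshot (10.1%). For large changes the return margin is a small fraction of the original difference, and for changes under 1.5-fold it is wider than that difference.

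Genes raised and genes lowered by VAV1 kept different shares of their change under saracatinib, as a description with no test. The median share of the log2 change remaining under saracatinib was 81.2% over the 597 raised genes and 57.9% over the 792 lowered genes. The filter on low values used the empty-vector and saracatinib libraries, so a weakly expressed gene raised by VAV1 entered only if it was still high under saracatinib. With the filter over all 9 libraries, which adds 301 genes, 79 of them at least 2-fold higher with VAV1 and 44 lower with saracatinib than with vehicle, the shares were 80.3% over 675 raised and 57.9% over 791 lowered genes. In the 3 saracatinib libraries the median difference from the empty-vector mean was 1.39, 1.41 and 1.40 over the raised genes, against 1.70, 1.66 and 1.69 in the VAV1 libraries with vehicle. Over the lowered genes it was -0.917, -0.894 and -0.866, against -1.55, -1.53 and -1.58. The 3 saracatinib libraries thus gave nearly the same medians, and none overlapped the vehicle libraries. The genes were, however, chosen for a change of at least 2-fold in those same vehicle libraries. That choice alone can enlarge the vehicle medians and lower the shares remaining. The gap between the groups is therefore not a test of a saracatinib effect. Both sets hold weakly expressed genes: the median of the lowest group mean was 5.36 over the lowered and 4.92 over the raised genes.

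**Figure D1:**
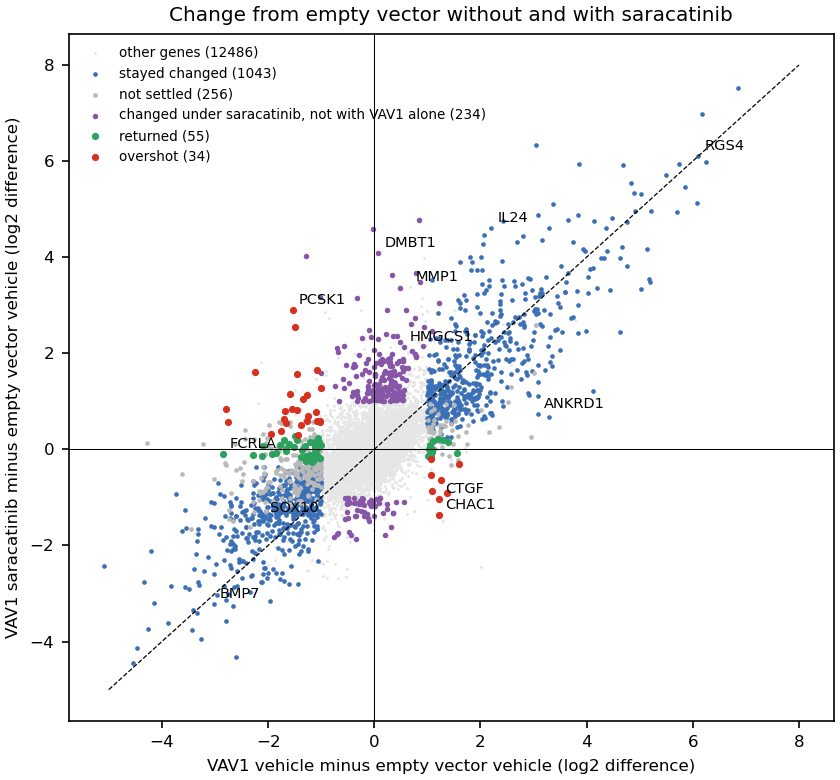
Difference from the empty vector (log2) of VAV1 cells with vehicle, on the x axis, against that of VAV1 cells with saracatinib, on the y axis, 1 point per tested gene apart from VAV1 itself; both axes use the same 3 empty-vector libraries, so some of the alignment comes from sharing them. Of the 1044 genes that stayed changed, 414 had moved from the dashed line of equal change toward 0 and 80 further from 0. For 550 the drug effect was not called. The 55 returned genes lie near the horizontal line at 0, and the 34 overshot genes and the 234 genes changed under saracatinib and not with VAV1 alone lie away from the diagonal.

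The genes that kept the largest increase under saracatinib included membrane and neuronal genes that were near the floor in control cells. RGS4, on chromosome 1 at 163068775 to 163076802 (plus strand), encodes a GTPase-accelerating protein that turns off G protein signalling. It was at 2.21, 2.53 and 1.53 with the empty vector, 8.17, 7.80 and 8.59 with VAV1 and vehicle and 8.15, 8.33 and 8.09 with VAV1 and saracatinib. The 2 VAV1 groups overlapped and both lay far above control, and the difference from empty vector under saracatinib was 6.10 ± 0.26 (68.5-fold, adjusted p = 8.28e-10). BASP1, a growth cone membrane protein, was 5.99 ± 0.13 above control, and SH3GL2, which encodes the endocytic protein endophilin A1, was 5.72 ± 0.17 above it. MME, the membrane metallopeptidase neprilysin, lay at 1.77 to 4.78 with the empty vector and at 10.68 or above with saracatinib. ANO2, a calcium-activated chloride channel gene, lay at 0 to 2.46 and at 7.83 to 8.15. These genes were picked among those whose saracatinib effect in VAV1 cells was not called or was under 1.5-fold. For these 5 genes it was not called, which is thus largely a result of the choice. The saracatinib and vehicle libraries still did not overlap for MME (0.68 ± 0.68), ANO2 (0.79 ± 0.48), SH3GL2 (0.22 ± 0.17) and BASP1 (-0.26 ± 0.13).

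IGFBP5, which encodes an insulin-like growth factor binding protein, was among the genes whose loss persisted, picked under the same condition on the saracatinib effect. Its levels were 10.29, 10.25 and 10.14 with the empty vector, 6.51, 6.90 and 7.01 with VAV1 and vehicle and 6.99, 6.64 and 7.04 with saracatinib, so that the VAV1 groups overlapped well below control (-3.34 ± 0.14, adjusted p = 8.24e-10). FLT1, a VEGF receptor gene, remained at a difference of -2.84 ± 0.30, and DCHS1, a large protocadherin gene, at -3.14 ± 0.24. AFAP1L2, an actin-associated adaptor that binds SRC, fell by 2.53, and FREM1, a basement membrane gene, fell by 2.75. HLA-DOA, of the MHC class II pathway, also remained low, at -2.90 ± 0.30, and its reads could be shared with related HLA genes.

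Under saracatinib 59 of the raised and 21 of the lowered genes that stayed changed moved further from control. No empty-vector cells received saracatinib, so a larger VAV1 effect cannot be told apart from an added effect of the drug. IL24, a cytokine gene of the IL10 family on chromosome 1 at 206897443 to 206904139 (plus strand), was at 8.98, 8.73 and 8.71 with the empty vector, 11.01 on average with VAV1 and vehicle and 13.39, 13.43 and 13.39 with saracatinib. The groups formed 3 separate steps, and IL24 ended 24.3-fold above control (4.60 ± 0.06, adjusted p = 1.48e-14). IL1B, the inflammatory cytokine interleukin 1 beta, rose from 3.38 to 3.97 in the controls to 8.03 to 8.14 under saracatinib (4.46 ± 0.21). PKIB, a protein kinase A inhibitor gene, ended 4.0 ± 0.29 above control, and FAM49A, whose product binds RAC1, lay at 0 to 2.08 with the empty vector and at 7.02 to 7.09 with saracatinib. On the lower side, the transcription factor genes ATOH8 and HES1 ended at -4.32 ± 0.33 and -2.01 ± 0.15 from control, and the retinol receptor gene STRA6 and PMEPA1, a target and inhibitor of TGF-beta signalling, both ended at least 2-fold lower (STRA6 fell by 2.69, PMEPA1 fell by 2.75).

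Only 14 of the raised genes met the criteria of a return: AK5, ANKRD33B, ARHGEF28, ARID3B, AXL, CPNE7, CRIM1, FRMD6, GDA, KLF7, NMT2, PAWR, RBMS2 and SMURF2. GDA, which encodes guanine deaminase, was at 9.0, 8.92 and 8.88 with the empty vector, 10.49, 10.49 and 10.53 with VAV1 and vehicle and 8.84, 8.85 and 8.88 with saracatinib. Its saracatinib libraries lay at or just under the control range, and the difference of -0.08 ± 0.06 was not called (adjusted p = 0.338). AXL, the receptor kinase of the dedifferentiated melanoma state, went from 12.03 to 12.27 in control cells to 13.23 to 13.28 with VAV1 and back to 12.16 to 12.19. CRIM1, a transmembrane protein that binds BMPs, differed from control by -0.04 ± 0.05. NMT2, an N-myristoyltransferase gene, was 0.22 ± 0.11 above control (adjusted p = 0.123), and without empty vector replicate 2 its difference was 0.33 and was called. ARHGEF28, which encodes a guanine nucleotide exchange factor, and ARID3B, a DNA-binding protein gene, differed from control by 0.17 ± 0.08 and 0.20 ± 0.17. For ANKRD33B (0.15 ± 0.09, not called) the saracatinib libraries lay above every control library. Without empty vector replicate 2, 9 raised genes returned in place of 14.

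The returns were more numerous among lowered genes, 41 in all. FCRLA, an intracellular Fc receptor-like protein gene on chromosome 1 at 161706972 to 161714352 (plus strand), was at 8.67, 8.40 and 8.57 with the empty vector, 5.29, 5.62 and 6.20 with VAV1 and vehicle and 8.39, 8.48 and 8.46 with saracatinib. The saracatinib libraries lay within or just under the control range, and the difference was -0.11 ± 0.19. ISG20, an interferon-induced exonuclease gene, differed by 0.07 ± 0.08 from control, and the transcription factor gene ARNT2 by 0.08 ± 0.06. GPR153, an orphan receptor gene, and SNTB1, a syntrophin gene, lay at -0.15 ± 0.08 and -0.11 ± 0.09. Though neither was called, the saracatinib libraries lay above every control library for ARNT2 and below every one for SNTB1. The nuclear receptor genes of the NR4A family were picked out after their values were seen: NR4A1 and NR4A2 returned and NR4A3 overshot. NR4A2 was at 7.53, 7.22 and 7.59, then 4.89, 5.24 and 5.37, then 7.35, 7.18 and 7.49 in the 3 groups. The immediate early gene FOS was likewise lowered by VAV1 and ended 0.39 ± 0.09 above control, while EGR1 and FOSB stayed at -2.61 ± 0.09 and -1.54 ± 0.18.

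Of the 8 raised genes that overshot, 3 encode matricellular proteins: CTGF, CYR61 and THBS1. CTGF, on chromosome 6 at 131948176 to 131951373 (minus strand), was at 9.72, 9.63 and 9.66 with the empty vector, 10.87, 10.94 and 10.85 with VAV1 and vehicle and 8.70, 8.51 and 8.71 with saracatinib. It had risen with VAV1 and ended below every control library (-1.03 ± 0.07, adjusted p = 8.56e-08). THBS1, which encodes thrombospondin 1, ended at 12.26 to 12.46 against 12.87 to 13.08 in control cells, and CYR61 at 10.18 to 10.27 against 10.47 to 10.61. The others were CDC42EP1, which encodes an effector of the GTPase CDC42, the stress gene CHAC1, ODC1 of polyamine synthesis, RAB39B and KRT86. ODC1 lay close to the threshold (-0.20 ± 0.07, adjusted p = 0.0353) and lost its call without empty vector replicate 1 or 3 and without any of the 3 saracatinib libraries, with differences of -0.15 to -0.20. Without empty vector replicate 1 or replicate 2, 5 raised genes overshot in place of 8.

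Overshoot from the other side covered 26 genes, with a median difference from control of 0.79, against -0.75 over the 8 raised genes. PCSK1, a prohormone convertase gene on chromosome 5 at 96390415 to 96434143 (minus strand), was at 8.44, 8.12 and 8.17 with the empty vector, 7.04, 6.47 and 6.61 with VAV1 and vehicle and 11.12, 11.17 and 11.14 with saracatinib. VAV1 had lowered it and the treated cells ended 7.5-fold above control (2.90 ± 0.13, adjusted p = 2.37e-09). CEMIP, which degrades hyaluronan, dropped from 11.45 to 11.65 down to 8.62 to 8.82 with VAV1 and ended at 12.29 to 12.52. A2M, the protease inhibitor alpha-2-macroglobulin, ended 2.55 ± 0.24 above control, and ST8SIA4, a polysialyltransferase gene, 1.56 ± 0.14. PTGES, a prostaglandin E synthase gene, and CFI, complement factor I, ended 1.15 ± 0.07 and 0.85 ± 0.12 above. The integrin genes ITGA1 and ITGB8 and the lysosomal protease gene CTSK were in this class, at 0.64 ± 0.11, 0.50 ± 0.09 and 0.57 ± 0.14 above control.

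**Figure D2:**
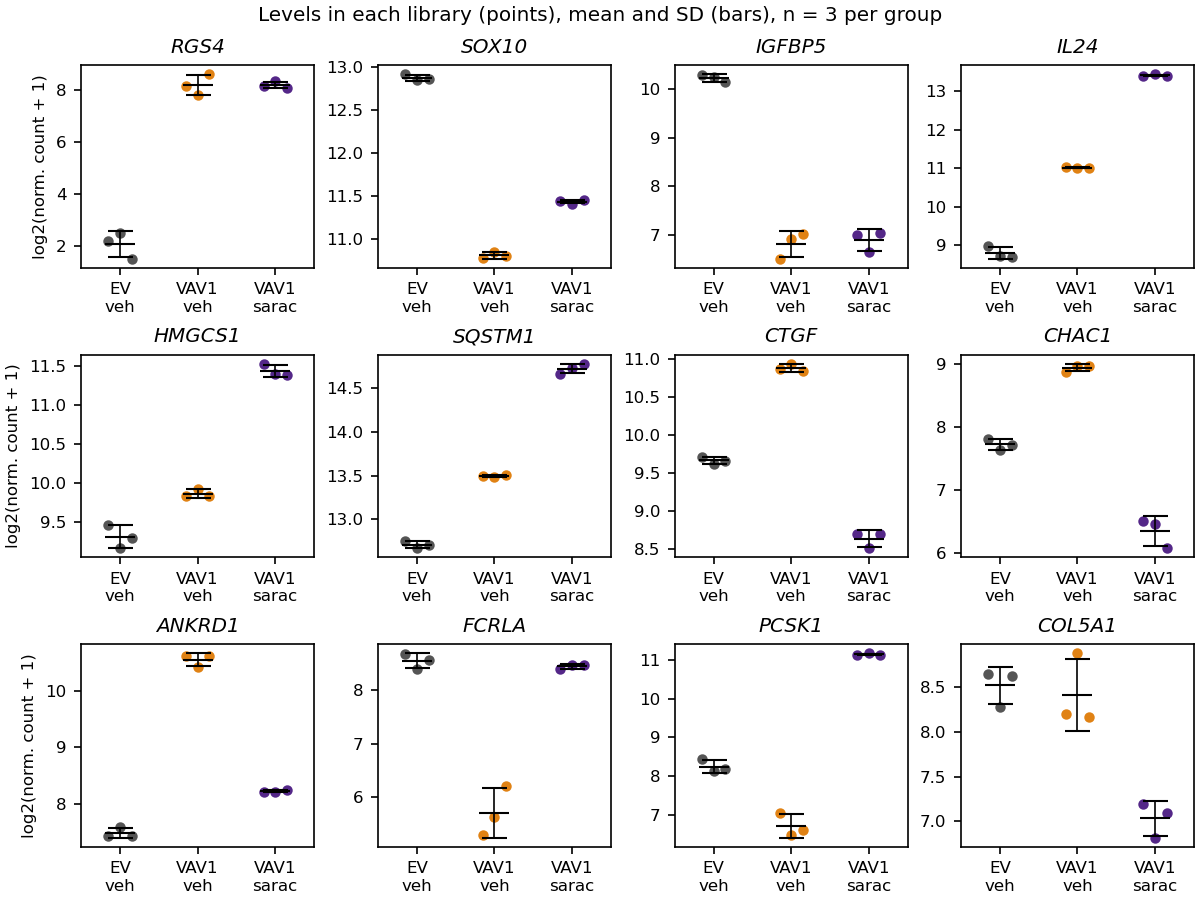
Level of 12 genes in each library, as log2(normalized count + 1), in empty vector with vehicle (EV veh), VAV1 with vehicle (VAV1 veh) and VAV1 with saracatinib (VAV1 sarac); points are libraries and bars the mean and SD, n = 3 per group, and the y axes differ and do not start at 0. RGS4 and IGFBP5 kept the VAV1 level, SOX10 moved partway, FCRLA reached the control range, CTGF, CHAC1 and PCSK1 crossed it, and IL24, HMGCS1 and SQSTM1 rose in 2 steps.

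A further 234 genes differed at least 2-fold from the empty vector under saracatinib although VAV1 with vehicle had not changed them or had changed them by less than 1.5-fold, 175 higher and 59 lower. DMBT1, a secreted mucin-like glycoprotein gene, was at 4.62, 5.18 and 5.14 with the empty vector, 4.91, 5.21 and 5.06 with VAV1 and vehicle and 9.11, 9.06 and 9.03 with saracatinib. The first 2 groups overlapped, and the treated group was 17.0-fold above control (4.09 ± 0.18). KYNU, which encodes kynureninase of tryptophan breakdown, was at 9.66 to 9.83 in control cells and at 12.08 on average with saracatinib. VAV1 with vehicle had already raised KYNU by 0.43 ± 0.06, which is less than 1.5-fold. SMOC1, a secreted BMP antagonist gene, went from 7.20 to 7.35 in control cells to 9.62 to 9.83. IQGAP2, a scaffold protein gene, and TMEM158 ended 2.34 ± 0.15 and 2.30 ± 0.11 higher. The proline transporter gene SLC6A20 ended 4.77 ± 0.80 higher, with control libraries spread from 2.13 to 4.78. Its difference with VAV1 and vehicle was 0.84 ± 0.80 and was not called.

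The lower genes of this kind included collagens and an inhibitor of BMP signalling. COL5A1, a fibrillar collagen gene, was at 8.65, 8.29 and 8.63 with the empty vector, 8.20, 8.88 and 8.17 with VAV1 and vehicle and 7.19, 6.82 and 7.09 with saracatinib. COL6A3 fell by 1.38 (SE 0.14) from control, FAM101B, which encodes a filamin-binding protein, by 1.33 (SE 0.16), and SMAD6, an inhibitory SMAD gene, dropped by 1.33 (SE 0.12). CBS, which encodes cystathionine beta-synthase, and its near-identical copy CBSL differed from control by -1.61 and -1.39, and how reads were divided between the copies is uncertain. With VAV1 and vehicle CBS had been 0.32 ± 0.11 above control.

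RAC1 P29S in the untreated experiment was read in the same classes, since those 6 libraries took no part in sorting the genes. Against its own empty-vector controls RAC1 was 3.05 ± 0.04 higher there, and RAC1 P29S raised 15.6% and lowered 15.5% of 14036 tested genes. Of the 447 raised genes that stayed changed under saracatinib and were tested there, 363 (81.2%) were raised by RAC1 P29S too, and of the 502 lowered ones 400 (79.7%) were lowered too. Of the returned genes 13 of 14 raised and 28 of 41 lowered had moved the same way with RAC1 P29S, and of the overshot genes 6 of 8 and 20 of 26. Of the genes not settled 60.8% of 51 raised and 41.2% of 165 lowered had done so, and of all genes changed at least 2-fold by VAV1 79.4% of 520 and 70.3% of 734. The differences between classes were not tested. Of the genes changed under saracatinib and not with VAV1 alone, 30 of 138 higher (21.7%) and 9 of 56 lower (16.1%) moved the same way with RAC1 P29S, close to the background, and 12.3% and 23.2% moved the opposite way. That class leaves out genes that VAV1 with vehicle had changed by 1.5-fold or more, so a low share there can follow from its definition.

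Among the genes that stayed changed, those pulled toward control by saracatinib were shared with RAC1 P29S in 96.1% of 154 raised and 92.3% of 259 lowered cases. Where no saracatinib effect was called the shares were 73.1% of 253 and 65.0% of 223. These groups also differed in abundance, with median levels of 7.67 and 8.42 in the former and 5.40 and 5.41 in the latter. Among genes with a mean level of at least 8, the shares were 96.9% and 96.6% against 91.4% and 88.5%. SH3GL2 was an exception among the persistent genes named above, with a difference of -0.17 ± 0.25 under RAC1 P29S, whereas RGS4 (5.47 ± 0.18) and BASP1 (6.30 ± 0.29) were raised by it.

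**Figure D3:**
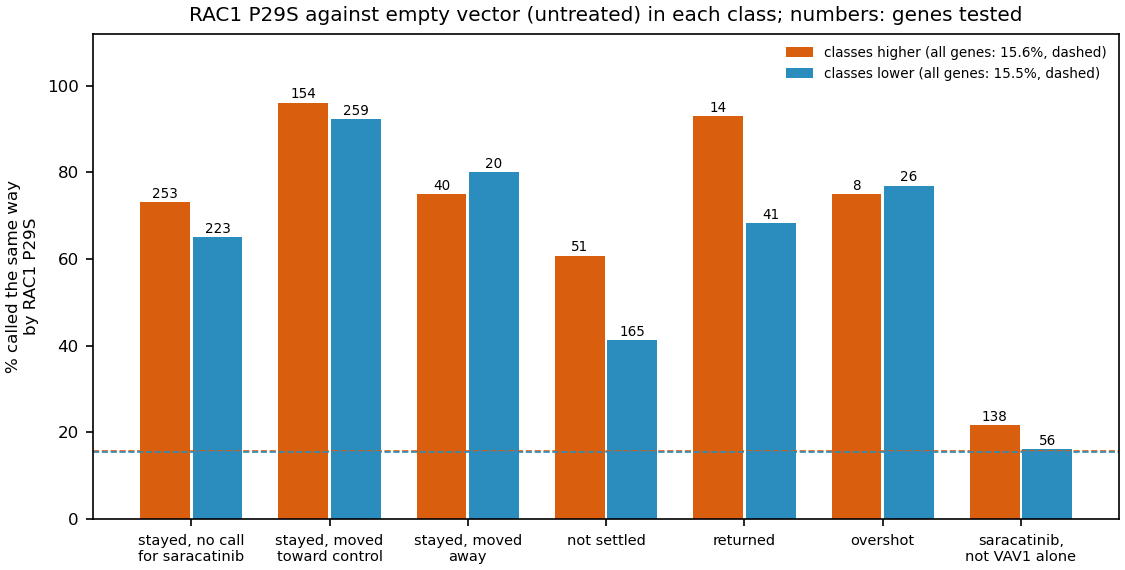
Share of each class (percent, y axis) called in the same direction in untreated RAC1 P29S cells against untreated empty-vector cells, for classes of raised (orange) and lowered (blue) genes; numbers above the bars are genes tested in that experiment and dashed lines the share over all genes, 15.6% and 15.5%. Genes that stayed changed, returned or overshot lie at 65.0% to 96.1%, and genes changed under saracatinib and not with VAV1 alone at 21.7% and 16.1%; genes not settled lie between, at 60.8% and 41.2%.

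Pathway lists were read by how many members differed from the empty vector, beside 22.6% higher and 21.5% lower over all genes and a median difference of 0.00359. Targets of YAP and TEAD, the transcription factors downstream of actin and adhesion, lost their VAV1 increase as a group. Of 24 tested members VAV1 had raised 15 and lowered 2, and saracatinib lowered 18 and raised 2 in VAV1 cells. Against the empty vector 7 were then higher and 7 lower, with a median difference of -0.05, against 0.82 under VAV1 with vehicle. ANKRD1 was at 7.44, 7.58 and 7.43 with the empty vector, at 10.63, 10.43 and 10.62 with VAV1 and vehicle and at 8.22, 8.21 and 8.24 with saracatinib, which left 24.0% of its VAV1 change. F3, tissue factor, came down from 8.45 to 8.75 to 5.68 to 6.41, with control libraries at 5.42 to 5.93. TGFB2, a TGF-beta ligand gene, kept the largest increase of the list, 2.64 ± 0.32, and NT5E, an ecto-nucleotidase gene lowered by VAV1, rose to 0.94 ± 0.05 above control. Both CTGF and CYR61 ended below it, as given above.

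The promoters of CTGF and ANKRD1 are shown because saracatinib lowered both strongly in VAV1 cells (-2.25 and -2.34) and both hold the TEAD motif GGAATG more than 1 time. The windows come from the 250 bases before each gene start in RefSeq on GRCh38.p14, where CTGF is listed as CCN2, and capitals mark the motif.
CTGF chr6:131951432-131951571 minus strand: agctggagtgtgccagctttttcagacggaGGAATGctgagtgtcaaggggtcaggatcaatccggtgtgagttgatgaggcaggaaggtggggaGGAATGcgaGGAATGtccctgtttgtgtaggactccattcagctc
ANKRD1 chr10:90921272-90921337 minus strand: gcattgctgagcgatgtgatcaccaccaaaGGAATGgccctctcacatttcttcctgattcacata
ANKRD1 chr10:90921180-90921245 minus strand: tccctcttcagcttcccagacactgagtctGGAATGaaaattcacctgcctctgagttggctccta
The motif, searched on both strands, was found in 7 of the 18 list members with a searched promoter (38.9%), in 9.42% of the 10870 tested genes with one and in 11.9% of all 27305 promoters. CTGF and ANKRD1 were picked for their fall. The other members with the motif differed from control by 2.64 (TGFB2), 0.92 (NUAK2), -0.01 (FOXF2), -0.14 (PTPN14) and -0.50 (WTIP). NUAK2 and WTIP also hold it more than 1 time. A match describes the letters in the window and is not evidence of binding.

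Targets of SRF and its MRTF cofactors, which respond to actin, moved in the same direction with smaller sizes. VAV1 had raised 15 of 25 and lowered 2, saracatinib lowered 15 and raised 2, and 7 ended higher and 9 lower than control, with a median of -0.03. ACTB, beta actin, was at 15.56, 15.41 and 15.42 with the empty vector and at 15.01, 15.08 and 15.06 with VAV1 and saracatinib (-0.41 ± 0.04). FHL2, a LIM domain protein gene, kept an increase of 1.0 ± 0.07.

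Genes of SRC family kinases and their substrates were lower than control more often than higher, 10 against 4 of 19. SRC itself was at 10.44 to 10.47 in control cells, 9.82 to 9.98 with VAV1 and vehicle and 10.30 to 10.42 with saracatinib, and its remaining difference was not called (-0.10 ± 0.06, adjusted p = 0.205). FYN lay at -0.88 ± 0.12 from control, and the adhesion scaffold genes PXN and NEDD9 at -0.67 ± 0.05 and -1.32 ± 0.16. CAV1, which encodes the caveolar scaffold and SRC substrate caveolin 1, had risen by 2.08 with VAV1 and ended 0.66 ± 0.06 above control. In the list of the VAV family, small GTPases and their effectors 9 of 37 were higher and 16 lower. RHOQ, a GTPase gene of the CDC42 group, was 1.29 ± 0.06 higher, and TIAM1, a RAC exchange factor gene, was lower (-0.87 ± 0.09).

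Output genes of the MAPK pathway, many of which encode its own negative regulators, stayed mostly low. VAV1 had lowered 16 of 22 and raised 4, and under saracatinib 12 were lower and 5 higher than control, with a median of -0.30 against -0.59 with vehicle. SPRY4 was at 11.77, 11.76 and 11.83 with the empty vector, 9.50 on average with VAV1 and 9.99, 10.02 and 9.91 with saracatinib. The Sprouty gene SPRY2 and the MAPK phosphatase gene DUSP6 remained below control, at -1.20 ± 0.05 and -0.64 ± 0.06. Members also moved the other way: DUSP4 was at -0.66 with VAV1 and vehicle and ended 0.35 ± 0.04 above control, SPRY1 ended 1.52 ± 0.14 above it without a called VAV1 effect, and DUSP5 rose further to 1.66 ± 0.07. MYC and FOSL1, both raised by VAV1, were at 0.04 ± 0.10 and -0.03 ± 0.04 and not called.

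Neural crest and glial genes stayed below control more often than above it under saracatinib. In the list of neural crest and glial genes VAV1 had lowered 11 of 21 and raised 5, and under saracatinib 11 were lower and 6 higher than control. SOX10, on chromosome 22 at 37970686 to 37987422 (minus strand), was at 12.92, 12.85 and 12.87 with the empty vector, 10.80 on average with VAV1 and vehicle and 11.44, 11.41 and 11.45 with saracatinib. It had gained 0.63 from the drug and kept 69.6% of its VAV1 change (-1.44 ± 0.04). The glial gene S100B remained at -2.24 ± 0.14 from control and TFAP2B, a neural crest factor gene, at -2.87 ± 0.12, while NES, nestin, fell further to -2.18 ± 0.06. SOX9 kept an increase of 3.77 ± 0.13. Of 11 melanocyte genes VAV1 had lowered 6 and raised 2, with a median of -0.50. Under saracatinib 5 were higher and 4 lower than control, 2 of the lowered ones ended above it, and the median over the list was 0.386, 0.0483 and -0.233 in the 3 libraries, on both sides of 0. MITF, raised by 1.57 with VAV1, ended 0.47 ± 0.11 above control, and GPNMB, a MITF target and lysosomal glycoprotein gene, ended 1.88 ± 0.05 above it. CITED1 went from 3.56 to 4.32 in control cells to 6.46 to 6.87.

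Receptor tyrosine kinases and their ligands were mixed, with 11 of 33 higher and 8 lower than control. EGFR kept an increase of 1.24 ± 0.08 and MET, the hepatocyte growth factor receptor gene, of 0.82 ± 0.05, with the saracatinib libraries between the other groups. The EGF family ligand gene AREG was at 5.44, 5.21 and 5.03 with the empty vector, 7.52, 7.29 and 7.19 with VAV1 and 8.53, 8.56 and 8.52 with saracatinib, 9.9-fold above control. HBEGF and NRG1 kept increases of 1.97 ± 0.11 and 2.76 ± 0.16. ERBB3, the receptor of NRG1, remained lower, at -1.81 ± 0.05, and so did TGFA, another EGF family ligand gene, at -0.96 ± 0.05.

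The list of ATF4 targets and the integrated stress response, which covers amino acid synthesis and uptake, crossed the control level. VAV1 had raised 28 of 33 members and lowered 3, saracatinib lowered 27 and raised 1, and against the empty vector 20 were lower and 7 higher. Of the 28 raised members 15 ended below control, and the median went from 0.49 to -0.33. In the saracatinib libraries the median over the list was -0.296, -0.322 and -0.331. ASNS, asparagine synthetase, was at 11.04, 11.26 and 11.04 with the empty vector, 11.78 on average with VAV1 and 10.21, 10.06 and 10.09 with saracatinib (-0.99 ± 0.07). PHGDH, the first enzyme of serine synthesis, and SLC7A11, the cystine transporter gene, also ended lower (PHGDH fell by 1.01, SE 0.04). CHAC1, which encodes a glutathione-degrading enzyme, fell by 1.38 (SE 0.13). NUPR1, a stress-induced gene, kept the largest increase of the list, 2.51 ± 0.22.

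ASNS and CHAC1 are shown as list members whose promoter window holds the C/EBP-ATF response element TGATGNAA, on either strand, with capitals on the element.
ASNS chr7:97872439-97872506 minus strand: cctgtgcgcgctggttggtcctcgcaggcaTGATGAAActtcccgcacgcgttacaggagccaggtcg
CHAC1 chr15:40953232-40953299 plus strand: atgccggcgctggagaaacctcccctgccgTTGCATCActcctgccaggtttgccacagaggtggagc
It was found in 3 of 26 list members (11.5%), in 1.51% of the tested genes with a promoter and in 3.19% of all promoters. AARS was the third.

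Cholesterol synthesis genes and targets of SREBP2, the sterol-sensing transcription factor, ended above control as a group. Of 25 members 22 were higher than control and none lower, where VAV1 with vehicle had raised 12 and lowered 4, and the median difference was 0.79. At an unadjusted limma p under 0.05 there were 23 higher and 0 lower. HMGCS1, the HMG-CoA synthase gene, was at 9.47, 9.17 and 9.30 with the empty vector, 9.86 on average with VAV1 and 11.53, 11.39 and 11.39 with saracatinib, 4.4-fold above control. INSIG1, which retains the SREBP complex, was 1.83 ± 0.06 higher and SQLE, squalene epoxidase, 1.23 ± 0.06.

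Lysosome and autophagy genes, which encode degradative enzymes, the proton pump and autophagy factors, ended above control in 26 of 35 cases and below it in 2. VAV1 had lowered 12 of them and raised 7, and 10 of the 12 ended above control. SQSTM1, the autophagy receptor gene, was at 12.75, 12.68 and 12.71 with the empty vector, 13.50 on average with VAV1 and 14.66, 14.73 and 14.77 with saracatinib (2.01 ± 0.04, adjusted p = 5.58e-13). ATP6V0A4, a proton pump subunit gene, was at 6.79, 6.49 and 6.53, then 5.75 on average, then 9.41, 9.29 and 9.28. CTSL, a cathepsin gene, and NPC1, which exports cholesterol from lysosomes, ended 1.26 ± 0.06 and 1.54 ± 0.08 higher. GAA, acid alpha-glucosidase, ended lower than control, as did LAMP1.

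CTSA, a lysosomal protease gene at -0.44 with VAV1 and vehicle and raised to 0.83 ± 0.05 above control under saracatinib, is shown because its promoter holds the lysosomal motif TCACGTGA, in capitals, an 8-base palindrome that contains the E-box CACGTG.
CTSA chr20:45891279-45891334 plus strand: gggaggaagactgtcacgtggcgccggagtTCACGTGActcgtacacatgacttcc
It was found in 5 of 21 list members with a searched promoter (23.8%), in 1.63% of tested genes and in 0.89% of all promoters. Of the 5, CTSA differed most from control. The others were ATP6V0D1 (0.09), MCOLN1 (-0.09), and GAA (-0.23) and LAMP1 (-0.12), which ended below control. The sterol element TCACNCCAC was found in 1 of 19 cholesterol genes, SREBF2 (5.26%), against 0.856% of tested genes.

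**Figure D4:**
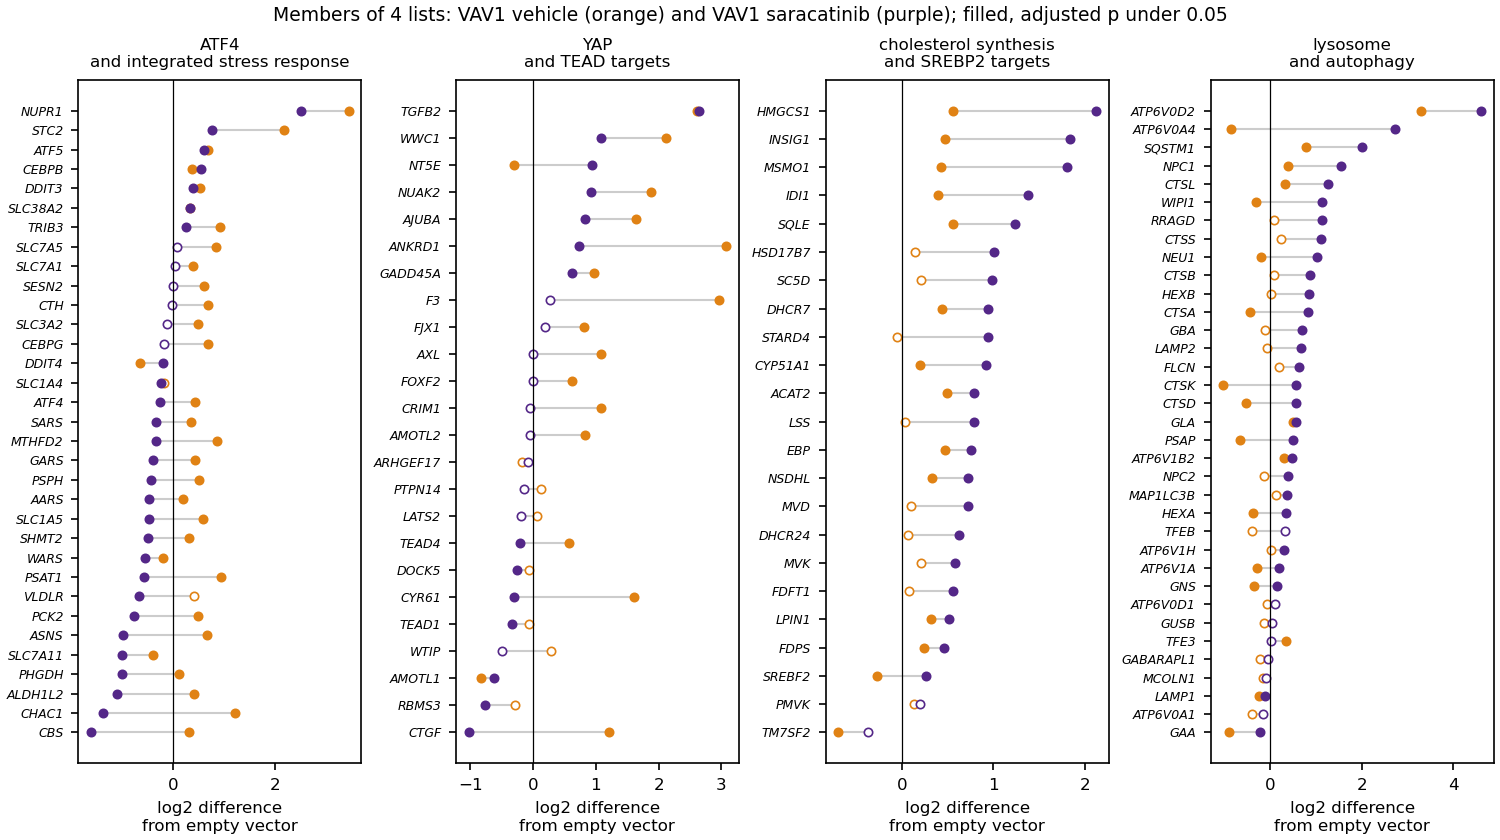
Log2 difference from the empty vector of the tested members of 4 lists, apart from 2 of the cholesterol list that are not drawn, for VAV1 with vehicle (orange) and VAV1 with saracatinib (purple), filled where adjusted p was under 0.05; both differences use the same 3 empty-vector libraries. Most ATF4 members go from above to below 0, most YAP and TEAD members move toward 0, and over the whole lists 22 of 25 cholesterol and 26 of 35 lysosome members passed the test above 0 with saracatinib.

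Proliferation genes were below control under saracatinib. Of 30 S phase and E2F target genes 25 were lower and none higher, and VAV1 with vehicle had raised 10 and lowered 4. At an unadjusted limma p under 0.05 there were 26 lower and 0 higher. TYMS, thymidylate synthase, was at 11.69, 11.64 and 11.58 with the empty vector and 10.97, 10.99 and 10.96 with saracatinib, and MCM7, of the replicative helicase, fell by 0.50. In the list of mitotic genes (G2 and M phase) 22 of 30 were lower and 2 higher, and 12 of the 17 raised by VAV1 ended below control. TPX2, a spindle assembly gene, fell by 0.56 (SE 0.04). MYC targets, 23 of 28 of which VAV1 had raised, ended with 8 higher and 9 lower and a median of 0.01. The nucleolar gene NOP56 fell by 0.37, and TFRC, the transferrin receptor gene, kept an increase of 0.81 ± 0.04. Of 24 p53 targets 16 were higher and 1 lower than control, VAV1 with vehicle had already raised 15 and lowered 2, and saracatinib against vehicle raised 7 and lowered 5. CDKN1A, the cell cycle inhibitor p21, was 1.40 ± 0.06 higher, and GDF15, a secreted stress factor gene, 3.59 ± 0.13.

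Inflammatory and interferon genes were higher than control more often than lower. In the list of NF-kB targets and cytokines 14 of 25 were higher and 5 lower, with IL24 and IL1B at the top. TNFAIP3, which encodes the NF-kB feedback protein A20, was 2.36 ± 0.15 higher, and PTGS2, the inducible cyclooxygenase gene, 2.89 ± 0.36. CXCL8 and IL1A, which VAV1 had lowered, ended at -0.86 and -1.64. Of 30 type I interferon response genes 20 were higher and none lower, where VAV1 had raised 11 and lowered 5 (21 higher and 0 lower at an unadjusted limma p under 0.05). IFIT2 was at 6.65, 6.97 and 6.48 with the empty vector and 8.37, 8.42 and 8.34 with saracatinib, and IFIT3 was 1.30 ± 0.11 higher.

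Matrix genes stayed below control for the most part, with 24 of 40 lower and 14 higher. ITGB3, the integrin beta 3 gene, was at 12.71, 12.63 and 12.73 with the empty vector, 10.01, 9.94 and 10.01 with VAV1 and 10.74, 10.82 and 10.81 with saracatinib. COL5A2, at -0.69 with VAV1 and vehicle, fell by 1.83 from control, and the protease inhibitor gene TIMP3 fell by 1.40. LAMA1, a laminin gene, kept an increase of 4.12 ± 0.11. MMP1, interstitial collagenase, was at 6.61, 6.83 and 6.62, then 7.48, 7.33 and 7.26, then 10.10, 10.06 and 10.06, which is 10.4-fold above control. In the list of the TGF-beta and BMP response 12 of 26 were lower and 8 higher, with a median of -0.44. The BMP target genes ID3 and ID1 lay at -2.38 and -1.68, BMP7 at -3.22 and SMAD7, another inhibitory SMAD gene, at -1.13, while TGFBR2, a TGF-beta receptor gene, rose by 1.24 and NOG, the BMP antagonist noggin, by 3.76.

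**Figure D5:**
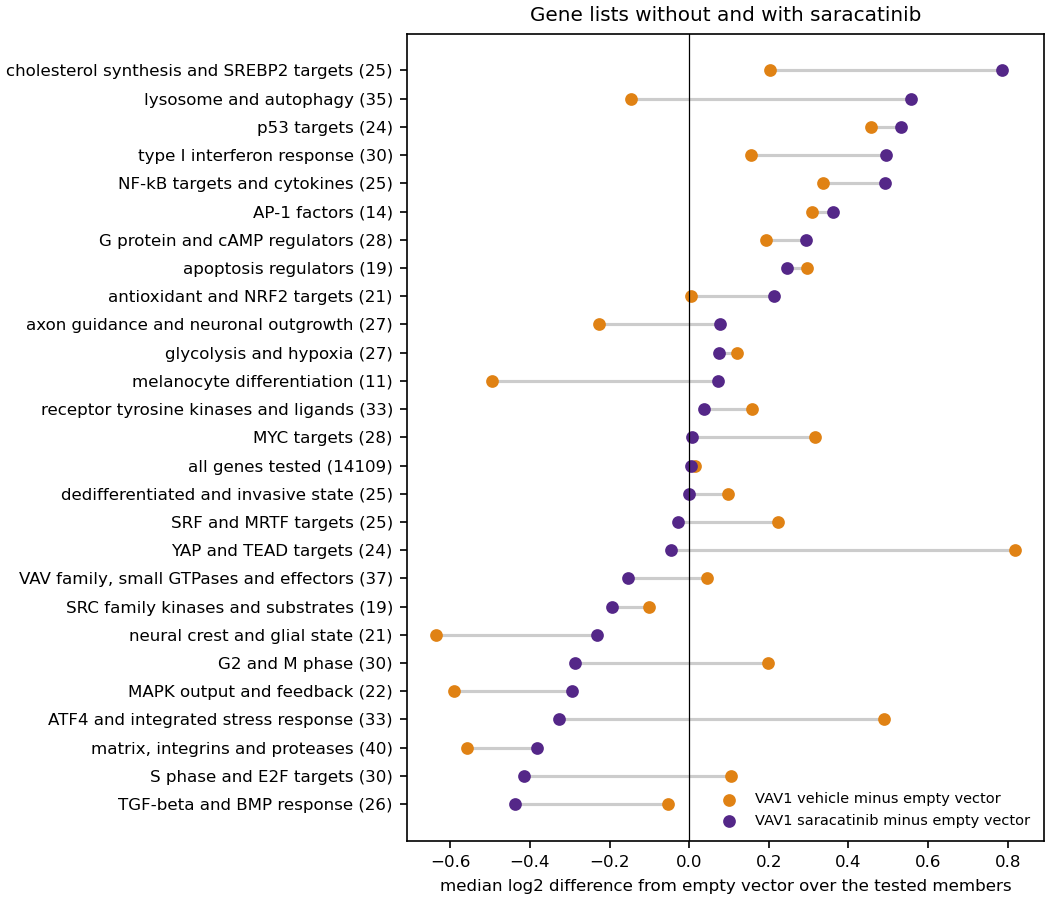
Median log2 difference from the empty vector over the tested members of each list, markers of other cell types and mitochondrially encoded genes left out (number in parentheses), for VAV1 with vehicle (orange) and VAV1 with saracatinib (purple); the medians over all 14109 genes lie near 0. The ATF4, S phase, and G2 and M phase medians go from above to below 0, the YAP and TEAD median goes from 0.82 to -0.05, and the cholesterol and lysosome medians end highest of the lists drawn, at 0.79 and 0.56.

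Of the other lists, those of AP-1 factors, apoptosis regulators, antioxidant genes, G protein regulators and glycolysis had more members higher than lower. In the list of glycolysis and hypoxia 11 of 27 were higher and 3 lower, of antioxidant genes and NRF2 targets 10 of 21 and 3, of AP-1 factors 8 of 14 and 2, and of apoptosis regulators 10 of 19 and 0 (11 and 0 at an unadjusted limma p under 0.05). FTH1, the ferritin heavy chain gene, which has near-identical pseudogenes that can share its reads, was 1.98 ± 0.05 higher. JUN kept an increase of 1.24 ± 0.09. Genes of axon guidance were 7 of 27 higher and 8 lower, and of these the receptor gene NRP2 and the ligand gene SEMA3B had returned. G protein and cAMP regulators were 12 of 28 higher and 5 lower, with F2R, the thrombin receptor gene, 1.63 ± 0.05 higher. The dedifferentiated and invasive state list had 8 of 25 higher and 9 lower, with VIM, vimentin, at -0.72 ± 0.03. None of the 13 mitochondrially encoded genes was called in limma against the empty vector (0 higher and 2 lower at an unadjusted p under 0.05), and 4 had been lower with VAV1 and vehicle.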

How the data were processed

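For each library the authors deposited gene symbols with log2 values, the log2 of a normalized count plus 1. Per the submitters' processing notes, kallisto, DESeq2 and GRCh38 were used, and versions and settings are not given in the sources used here. Read depth is unknown, so no counting interval is given; libraries summed to 14443918 to 14896129 normalized counts after undoing the log. Limma 3.58.1 in R 4.3.3 was fitted to the 9 vehicle and saracatinib libraries together, with 1 mean per group, a mean-variance trend, robust estimation and two-sided tests, and separately to the 6 untreated libraries. The filter used the 6 compared libraries. A further 301 genes pass over all 9 libraries but not over the 6, and 79 of these were at least 2-fold higher with VAV1 and vehicle; they are outside the classes. The method was tested on simulated data. Coordinates come from GENCODE 29, in which 95.2% of tested symbols were found, and promoters from RefSeq for 77.6%.

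The compared groups, lists and rules were chosen with earlier results of these data known, and nothing here is independent support for them. Named genes follow a rule: VAV1 and RAC1 always; per class and direction the 6 with the largest change, and the 4 with the most enlarged change, among genes with a mean level of at least 7 in the highest group and libraries that did not overlap; and per list at most 4 members, those of smallest adjusted p, and at most 2 that returned or overshot. The 6 genes per direction that stayed changed came only from those whose saracatinib effect in VAV1 cells was not called or was under 1.5-fold. Other named list members, and the complete classes of 14 and 8 genes, were added after their values were seen. Clone names were skipped. Alternatives were other scalings, filters and pseudocounts, class limits, a replicate block, a test against 1.5-fold and leaving out each library. Some genes are not reported here.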

Additional observations from a re-analysis of the deposited data

How the results depend on the processing

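Over all alternatives 3639 differences of 175 named genes were recomputed: 3568 kept their side of the threshold, 62 lost and 9 gained the call. No called difference reversed, and the direction of differences not called was not compared. Against a 1.5-fold change, 539 genes were higher and 334 lower than the empty vector. Of 320 counts 283 stayed within 1.5 times. With any VAV1 fold, raised and lowered genes numbered 1796 and 1556 for stayed changed, 813 and 559 for returned, 238 and 219 for overshot and 481 and 566 for not settled. With VAV1 at least 4-fold they numbered 220 and 174, 0 and 4, 0 and 3, and 9 and 44. A narrower return margin gave 7 and 14 returned genes, and one of 2-fold gave 38 and 103, with 31 raised genes not settled. A count of at least 50 gave 336 raised genes that stayed changed, 17 and 74 not settled and 37 lower genes changed under saracatinib and not with VAV1 alone. With a pseudocount of 16, 16 lowered genes overshot, 18 and 35 were not settled and 27 were lower under saracatinib and not with VAV1 alone. No filter gave 122 raised genes not settled. At 4-fold from the empty vector, 32 genes were higher and 0 lower under saracatinib and not with VAV1 alone. Fewer genes or wider classes follow from how these limits are built; the cause of the other shifts was not tested. Leaving out 1 library each gave 9 to 15 raised and 31 to 47 lowered genes that returned, 5 to 7 and 19 to 27 that overshot, 374 to 527 and 456 to 541 that stayed changed and 53 to 77 and 173 to 242 not settled. The lowest counts of raised genes came without empty vector replicate 2 for returned and without replicate 1 or 2 for overshot. Same-numbered libraries showed no shared replicate effect (residual correlations of -0.0376 to 0.0132), and whether the cultures were paired is not stated. With a replicate block 3043 genes were higher and 2857 lower than control, 511 and 513 stayed changed, 15 and 41 returned and 7 and 25 overshot. The endothelial gene PECAM1 lost its call without saracatinib replicate 2 (difference 1.22), MT-ND6 and MT-ND5 gained one without saracatinib replicate 1 (-0.76 and -0.64), and low-level FCER1G and LUM changed calls under several settings.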
